A study of Mus musculus with 6 samples.

Results

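Scd1, Scd2, Scd3 and Scd4 encode the mouse stearoyl-CoA desaturases, and their transcript levels were described in brown adipose tissue, a fat depot that burns fuel to make heat. They are 4 of the 24016 gene entries of the table, and all 4 passed the minimum of a mean of 0.5 FPKM (fragments per kilobase of transcript per megafragment mapped) that left 10864 genes for testing. They were taken by symbol, and the family was chosen by these same FPKM values, as levels, shares and a sum that differed between the groups compared here. The values between these groups are therefore given as a description, without a test. The samples were 3 libraries labelled WT and 3 labelled AdIl17rc KO, all polyA RNA of flash-frozen tissue from C57BL6 mice. By the series title, the knockout concerns IL-17RC, a subunit of the receptor for the cytokine IL-17, in adipocytes. The promoter or Cre line behind the deletion was not given in the sources used here, nor were age, sex and housing temperature. The labels do not say whether each library came from its own animal, so a p-value speaks only of the spread among these libraries, which may be technical.

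Stearoyl-CoA desaturases sit in the membrane of the endoplasmic reticulum and place a cis double bond in the middle of saturated acyl chains, which turns stearoyl-CoA into oleoyl-CoA and palmitoyl-CoA into palmitoleoyl-CoA. The electrons come from NADH by way of cytochrome b5 reductase and cytochrome b5. The products are the main monounsaturated fatty acids of triglyceride stores and membrane phospholipids, and Scd1 is known as the main isoform of fat and liver. The genes are known targets of the lipid regulators SREBP1c, LXR and ChREBP. In the mouse, Scd2 is best known from brain and from newborn skin and liver, Scd3 from sebaceous glands and the Harderian gland, and Scd4 from heart.

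The 4 transcripts are close relatives, which bears on how reads are divided between them. In the GENCODE annotation of GRCm38 their principal transcripts all lie on chromosome 19, Scd3 at chr19:44203269-44244016, Scd2 at chr19:44293674-44306864 and Scd4 at chr19:44333092-44346743 on the plus strand, and Scd1 at chr19:44394455-44407709 on the minus strand. Each has 6 exons. The coding sequences hold 355 codons in Scd1, 358 in Scd2, 359 in Scd3 and 353 in Scd4, the stop codon left out. A stretch of 60 coding bases that all 4 share without a mismatch shows why some reads cannot be assigned to 1 gene. It starts at coding base 586 of Scd1, 595 of Scd2, 598 of Scd3 and 580 of Scd4, counted from the first base of the start codon, and crosses an exon junction in each of them.
Scd1 to Scd4, shared stretch: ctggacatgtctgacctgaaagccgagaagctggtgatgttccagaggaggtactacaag
The stretch of the same length with the lowest identity to Scd1, averaged over the other 3 and among those without a gap in the alignment, shows where reads can be told apart. It starts at coding base 295 of Scd1, 304 of Scd2, 307 of Scd3 and 289 of Scd4, and it too crosses an exon junction. Capitals mark the bases that differ from Scd1, which number 10 in Scd2, 18 in Scd3 and 17 in Scd4.
Scd1: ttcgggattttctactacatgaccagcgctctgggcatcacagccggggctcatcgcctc
Scd2: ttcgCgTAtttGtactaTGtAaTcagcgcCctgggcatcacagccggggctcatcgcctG
Scd3: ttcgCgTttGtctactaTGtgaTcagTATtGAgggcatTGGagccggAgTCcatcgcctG
Scd4: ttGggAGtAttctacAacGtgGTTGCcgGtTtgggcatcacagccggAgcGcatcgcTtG

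Over the whole coding sequence Scd1 was 91.5% identical to Scd3, 90.3% to Scd2 and 85.1% to Scd4. Scd4 was the most distant member, with 83.8% identity to Scd2 and 84.2% to Scd3. The longest run of bases shared without a mismatch was 185 bases between Scd1 and Scd3, 147 between Scd1 and Scd2, and 116 between Scd1 and Scd4. Over the whole transcripts, which run from 3306 bases in Scd4 to 5455 in Scd2, few windows were identical. Of all 50-base windows, 2.68% of those of Scd2, 4.85% of those of Scd3 and 2.58% of those of Scd4 also occurred in Scd1, and for 100-base windows the shares were 0.896%, 2.54% and 0.530%. Small as they are, these shares weigh against the much higher level of Scd1. Had every position of Scd1 yielded reads in proportion to its FPKM, the reads of Scd1 from 50-base windows identical to Scd4 would have numbered 5.39 times all reads of Scd4 in WT and 8.40 times in AdIl17rc KO. For 100-base windows the same figure was 1.11 in WT and 1.73 in AdIl17rc KO for Scd4, 1.67 and 2.23 for Scd3, and 1.13 and 1.32 for Scd2. Read length and the handling of reads with several matches were not given in the sources used here, so the levels of Scd2, Scd3 and Scd4 are uncertain, and their part in the differences below was not tested.

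**Figure D1:**
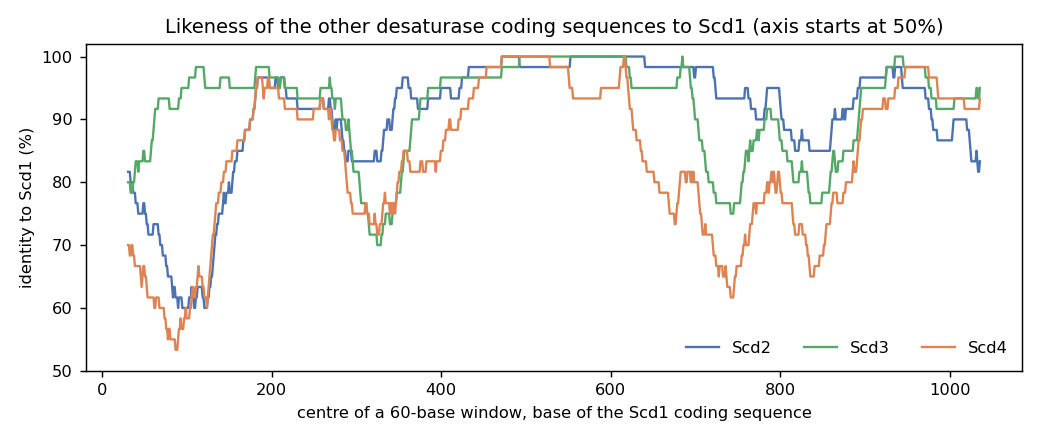
Identity to Scd1 in percent (vertical axis) in sliding 60-base windows along the Scd1 coding sequence (horizontal axis, bases; the vertical axis starts at 50%) for Scd2, Scd3 and Scd4, with gaps counted as differences. All 3 reach full identity in the stretch that starts at base 586, and the lowest windows of Scd2 and Scd4 (53.3% for Scd4) lie near the start, where the alignment has gaps, and that of Scd3 (70.0%) lies in the stretch that starts at base 295.

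All 4 desaturase transcripts were lower in AdIl17rc KO than in WT brown fat, with means of 20.5% to 31.8% of the WT mean. Scd1 was by far the most abundant. It was at 3906, 1900 and 3034 FPKM in WT libraries 1, 2 and 3 and at 882, 1058 and 871 FPKM in AdIl17rc KO libraries 1, 2 and 3. As deposited, the WT libraries were spread widely, with the highest 2.06 times the lowest, while the AdIl17rc KO libraries lay close together. This contrast in spread was smaller after scaling between libraries, described below, at 2938, 1863 and 2889 in WT and 879, 1246 and 1041 in AdIl17rc KO. The groups did not overlap, and as deposited the lowest WT library was 1.80 times the highest AdIl17rc KO library. The means were 2947 ± 1006 and 937 ± 105 FPKM (SD, n = 3), a 3.14-fold difference, and the log2 difference was -1.60 ± 0.32 (SE). Scd1 ranked 6 by mean FPKM among all genes of the table, and it made up 0.943% of all FPKM in WT and 0.299% in AdIl17rc KO. In AdIl17rc KO library 2, the feature Mir6236 supplied 146487 of 383558 FPKM, which lowers the share of Scd1 there. In a bulk sample, fewer cells that express a gene and less RNA of it per cell cannot be told apart.

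Scd3, the next in level, was at 60.9, 29.3 and 44.1 FPKM in WT libraries 1, 2 and 3 and at 9.56, 13.6 and 9.28 FPKM in AdIl17rc KO libraries 1, 2 and 3. Every AdIl17rc KO library lay below every WT library. The means were 44.8 ± 15.8 and 10.8 ± 2.43 FPKM (SD, n = 3), a 4.14-fold difference, and the log2 difference was -1.96 ± 0.35 (SE). Scd2 was at 29.5, 16.4 and 23.3 FPKM in WT and at 7.65, 7.42 and 4.74 FPKM in AdIl17rc KO. The groups again did not overlap, with 23.1 ± 6.56 and 6.60 ± 1.62 FPKM (SD, n = 3), a 3.49-fold difference and a log2 difference of -1.72 ± 0.32 (SE). Scd4 had the lowest level, at 20.7, 8.56 and 14.0 FPKM in WT and 2.99, 3.66 and 2.22 FPKM in AdIl17rc KO. Its groups did not overlap and stood farthest apart of the 4, with means of 14.4 ± 6.09 and 2.95 ± 0.720 FPKM (SD, n = 3), a 4.89-fold difference and a log2 difference of -2.05 ± 0.40 (SE). Scd4 in its lowest library rested on about 264 fragments, estimated from FPKM, transcript length and approximate depth. Counting alone would give an error of 6.16%, which leaves out how reads shared with Scd1 were divided.

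The order of levels was Scd1, Scd3, Scd2 and Scd4 within each of the 6 libraries, on the FPKM scale, which is per length. Scd3 and Scd2 are neighbours in this order whose ranges across WT libraries touched, since the highest Scd2 library (29.5 FPKM) lay above the lowest Scd3 library (29.3 FPKM). The ranges of Scd2 and Scd4 in WT also overlapped. As deposited, all 4 genes ordered the WT libraries alike, with library 1 highest and library 2 lowest, and in AdIl17rc KO library 3 was lowest for all 4. After scaling between libraries, described below, WT library 2 was still lowest for all 4, while AdIl17rc KO library 1 was lowest for Scd1 and Scd3 and library 3 for Scd2 and Scd4.

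**Figure D2:**
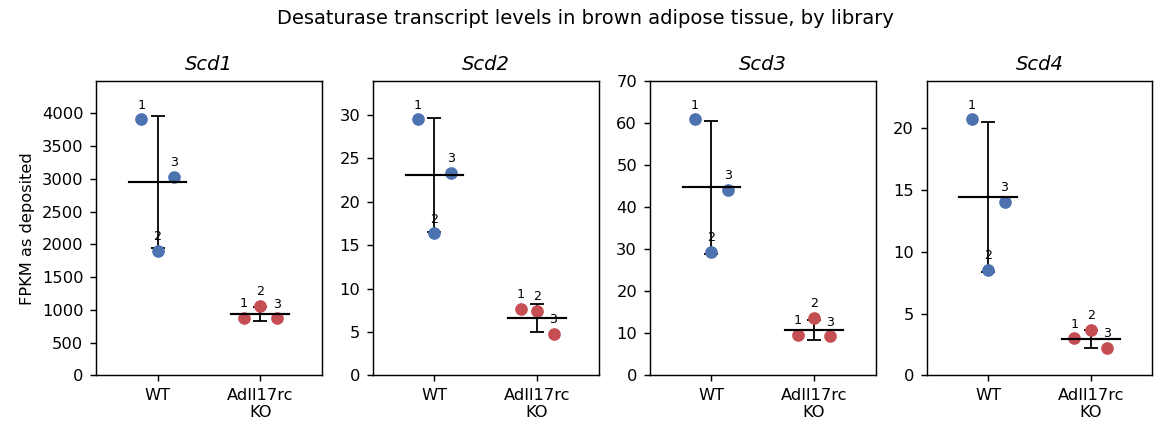
FPKM as deposited for each desaturase gene, each panel with its own linear axis from 0, 1 numbered point per library, WT in blue and AdIl17rc KO in red, with a line at the group mean and error bars of 1 SD. In each panel the 3 AdIl17rc KO points lie below the 3 WT points, from 871 to 1058 against 1900 to 3906 FPKM for Scd1 and from 2.22 to 3.66 against 8.56 to 20.7 FPKM for Scd4.

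Part of these differences was shared with most of the transcriptome. The median log2 difference of all 10864 tested genes was -0.29, and 9516 of them were lower in AdIl17rc KO. After median-of-ratios scaling, which brought that median to -0.0017, the log2 differences were -1.26 ± 0.26 (SE) for Scd1, -1.40 ± 0.23 for Scd2, -1.63 ± 0.30 for Scd3 and -1.74 ± 0.32 for Scd4. The groups of all 4 genes still did not overlap, and the lowest WT library was between 1.50 and 1.95 times the highest AdIl17rc KO library on the scaled values. The background for such a count was 31.7% of tested genes lower in AdIl17rc KO without overlap as deposited and 12.5% after scaling. A log2 difference of -1 or below was found in all 4 genes on both scales, against 1.16% of tested genes as deposited and 0.571% after scaling. These contrasts chose the family, so nothing is read from the counts of its members. Counted from the lowest log2 difference as deposited, Scd4 had rank 36, Scd3 rank 38, Scd2 rank 42 and Scd1 rank 46 of the 10864 tested genes.

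The summed level of the 4 genes was at 4017, 1954 and 3116 FPKM in WT libraries 1, 2 and 3 and at 903, 1082 and 887 FPKM in AdIl17rc KO libraries 1, 2 and 3. The sum followed Scd1, which supplied 97.2%, 97.2% and 97.4% of it in WT and 97.8%, 97.7% and 98.2% in AdIl17rc KO. The share of Scd1 was thus higher in AdIl17rc KO by 0.602 percentage points, without overlap. Scd3 supplied 1.48% ± 0.0540 of the sum in WT and 1.12% ± 0.119 in AdIl17rc KO (SD, n = 3), and Scd4 supplied 0.468% ± 0.0418 and 0.306% ± 0.0489. Both shares were lower in all 3 AdIl17rc KO libraries than in any WT library. The share of Scd2, at 0.773% ± 0.0556 and 0.689% ± 0.156 (SD, n = 3), overlapped between the groups.

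Ratios within a library do not depend on scaling between libraries, but they do depend on how reads with several matches were divided. They restate the shares above, which chose the family, so nothing is read from their separation. Scd3 stood at 1.56%, 1.54% and 1.45% of the Scd1 level in WT libraries 1, 2 and 3 and at 1.08%, 1.29% and 1.07% in AdIl17rc KO libraries 1, 2 and 3. Scd4 stood at 0.531%, 0.451% and 0.463% of Scd1 in WT and at 0.339%, 0.346% and 0.255% in AdIl17rc KO. Scd3 and Scd4 were thus lower relative to Scd1 in every AdIl17rc KO library, with log2 differences of the ratio of -0.41 ± 0.093 and -0.63 ± 0.16 (SE). For Scd2 the ratio to Scd1 was 0.755%, 0.861% and 0.769% in WT and 0.866%, 0.701% and 0.544% in AdIl17rc KO. The groups overlapped for Scd2, since AdIl17rc KO library 1 had the highest ratio of all 6 libraries. Scd4 stood at 34.0%, 29.2% and 31.8% of Scd3 in WT and at 31.3%, 26.8% and 23.9% in AdIl17rc KO, again with overlap.

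**Figure D3:**
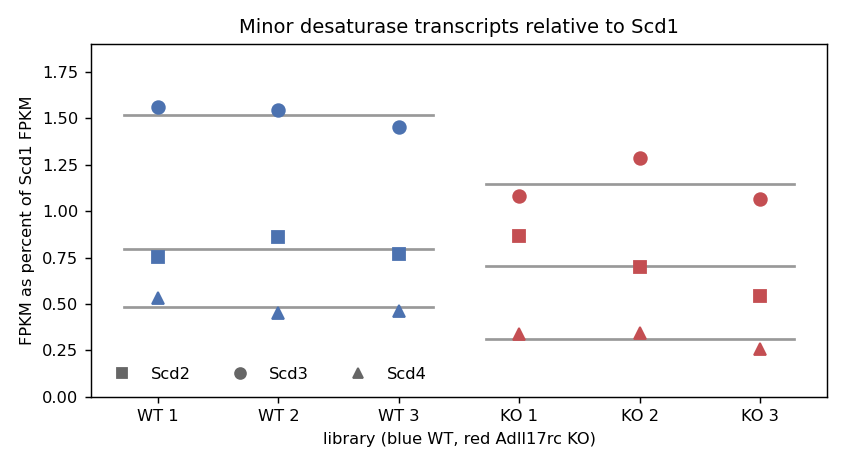
FPKM of Scd2 (squares), Scd3 (circles) and Scd4 (triangles) as a percent of Scd1 FPKM in the same library, with grey lines at the group means. Scd3 and Scd4 lie lower in all 3 AdIl17rc KO libraries than in WT, while Scd2 overlaps.

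Across the 6 libraries Scd3 and Scd4 had the profiles most alike. Likeness was measured as the root mean square difference of scaled log2 values, each profile centred on its mean, and it was 0.131 for this pair. The other pairs ranged from 0.204 for Scd1 and Scd3 to 0.278 for Scd1 and Scd4. By the same measure, the genes whose profile was nearest to that of the summed desaturases among 9086 candidates were Fam13a (0.215), Thbs1 (0.238), Col12a1 (0.246), Fasn (0.317), Lrp1 (0.324) and Spsb1 (0.330), against a median of 0.705 over all candidates. Thbs1 encodes the secreted matrix protein thrombospondin 1, Col12a1 a collagen chain, Fasn fatty acid synthase, and Lrp1 an endocytic receptor. Fam13a was at 23.8, 13.8 and 16.9 FPKM in WT and 5.98, 7.03 and 7.52 FPKM in AdIl17rc KO. Thbs1 was at 136, 69.3 and 99.2 FPKM in WT and 34.1, 31.1 and 43.2 FPKM in AdIl17rc KO. The difference between the groups is part of what this likeness measures, so it is a description here and no test of it is given.

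The desaturase genes stand side by side, and the genes around them had smaller differences. As the desaturases were chosen by their difference, nothing is read from that contrast. Scd3, Scd2, Scd4 and Scd1 follow each other within 205 kb, and of the 9 annotated protein-coding neighbours considered, 7 had enough signal to test. Their log2 differences ran from -0.48 to -0.098 as deposited and from -0.27 to 0.22 after scaling. None of the 7 passed the limma test (smallest adjusted p = 0.182), and 2 of them, Erlin1 and Sec31b, had an unadjusted p under 0.05 as deposited and 0 after scaling, beside 24.8% of all tested genes lower at that level as deposited and 8.61% after scaling. Chuk, a kinase subunit of NF-kappaB signalling, was at 9.96 ± 0.878 FPKM in WT and 9.26 ± 0.411 in AdIl17rc KO (SD, n = 3). Ndufb8, a subunit of respiratory complex I, was at 802 ± 90.4 and 713 ± 136 FPKM. Pkd2l1, which lies next to Scd3, was listed at 0 in all libraries, and Wnt8b, which lies next to Scd1, was at or near 0.

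**Figure D4:**
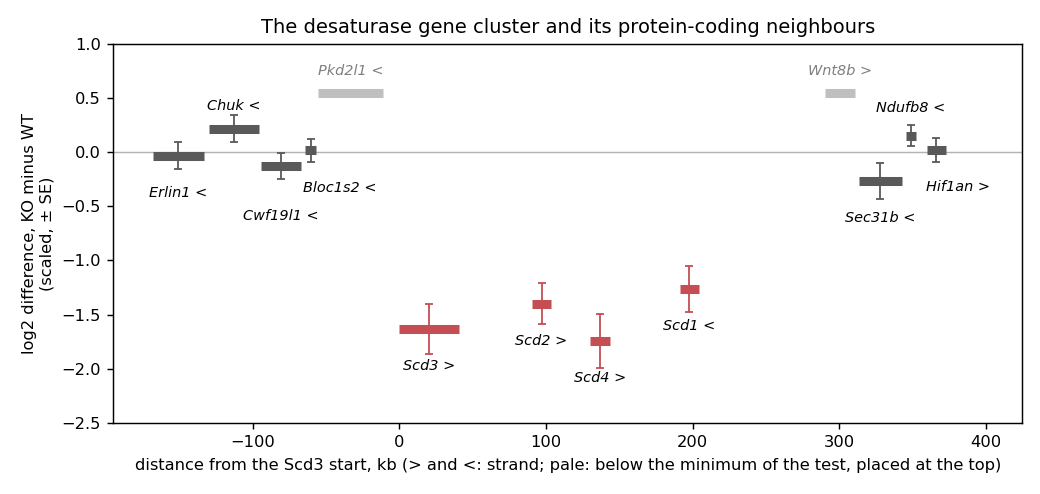
The desaturase genes (red) and their protein-coding neighbours (dark grey) drawn at their distance from the Scd3 start in kb (horizontal axis), with the scaled log2 difference, AdIl17rc KO minus WT, on the vertical axis and bars for limma's SE. The desaturases, chosen by their difference between these groups, lie between -1.74 and -1.26 and the tested neighbours between -0.27 and 0.22. The pale genes at the top were below the minimum of the test and carry no value.

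RefSeq promoter sequences of GRCm38.p6 were at hand for Scd3 and Scd4, the pair with the most alike profiles. They are shown from 250 bases before to 50 bases after the gene start, on the plus strand, at chr19:44203038-44203337 for Scd3 and chr19:44333076-44333375 for Scd4. The RefSeq starts used lie 19 bases downstream of the GENCODE start given above for Scd3 and 234 bases downstream for Scd4, so most of the Scd4 window lies inside the GENCODE transcript. The sequences have every match to a searched motif in capitals.
Scd3: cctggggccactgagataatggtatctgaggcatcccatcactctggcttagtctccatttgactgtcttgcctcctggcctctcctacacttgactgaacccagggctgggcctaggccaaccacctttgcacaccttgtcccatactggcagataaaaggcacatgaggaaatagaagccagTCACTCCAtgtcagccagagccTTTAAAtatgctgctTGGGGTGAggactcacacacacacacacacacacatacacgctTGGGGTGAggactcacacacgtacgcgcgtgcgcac
Scd4: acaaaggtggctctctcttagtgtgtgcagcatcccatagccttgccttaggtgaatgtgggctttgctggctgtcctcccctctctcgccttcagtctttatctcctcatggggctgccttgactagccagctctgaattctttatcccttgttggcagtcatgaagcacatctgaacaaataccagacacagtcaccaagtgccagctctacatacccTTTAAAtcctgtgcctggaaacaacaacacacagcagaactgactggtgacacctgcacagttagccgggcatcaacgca
Both hold 1 match to TTTAAA, an element like the TATA box, at position -44 in Scd3 and -30 in Scd4 from the RefSeq start, and 13.2% of the 32851 RefSeq mouse promoters of this length hold one. Scd3 also holds 3 matches to TCACNCCA, a core of sterol response elements, at positions -66, -29 and 14, and 4.36% of promoters hold one. Scd4 has no match to it. Both strands were searched, and the match at -29 and that at 14 lie on the minus strand. Neither window matched TATAAA (13.6% of promoters), CCAAT (37.4%), CACGTG (7.15%), AGGTCA (16.3%), GGGCGG (35.7%) or TGACGTCA (1.79%).

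The genes that work with the desaturases were examined in 6 lists, which hold 107 genes, 92 of them tested. The limma test across all genes found none of these 92 past the adjusted threshold of 0.05, as deposited or after scaling. It found 2 of all tested genes on each scale (0.0184%), the snoRNA Snord32a, higher in AdIl17rc KO, and the pseudogene Apoo-ps, lower, both named after their values were seen. At an unadjusted p under 0.05, 35 of the 92 were lower and 1 higher in AdIl17rc KO as deposited, against 24.8% and 1.01% of all tested genes. After scaling, 13 were lower and 7 higher, against 8.61% and 9.05%. The median log2 difference of the 92 was -0.40 as deposited and -0.11 after scaling, beside -0.29 and -0.0017 for all tested genes.

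Of the 22 tested genes that make, activate and lengthen the saturated substrates, 11 were lower and 1 higher at an unadjusted p under 0.05 as deposited, and 4 each way after scaling. The shares of all tested genes were 24.8% lower and 1.01% higher as deposited, and 8.61% and 9.05% after scaling. The gene higher as deposited was Elovl3, and after scaling Acaca, Acacb, Fasn and Aacs were lower and Acsl1, Elovl3, Elovl6 and Ptplb higher, of which Acacb, Acsl1, Elovl3 and Ptplb are named after their values were seen. Fatty acid synthase, Fasn, was at 131, 45.4 and 97.6 FPKM in WT and 36.9, 24.4 and 20.6 FPKM in AdIl17rc KO. Its groups did not overlap, beside 31.7% of tested genes lower without overlap as deposited and 12.5% after scaling. Its WT libraries differed by more than those of Scd1. The log2 difference was -1.64 as deposited and -1.31 after scaling (limma adjusted p = 0.151 and 0.233). With a correction for the GC content and length of transcripts added to the scaling, it was -0.97. Aacs, the acetoacetyl-CoA synthetase of the cytosol, was at 24.1, 18.2 and 22.8 FPKM in WT and 12.4, 8.70 and 8.22 FPKM in AdIl17rc KO (log2 difference -1.12, limma adjusted p = 0.144). Acaca, the acetyl-CoA carboxylase that makes malonyl-CoA, was at 35.9 ± 11.5 and 19.8 ± 2.04 FPKM (SD, n = 3). Acsl3, which activates long-chain fatty acids, was at 9.62 ± 2.23 and 5.40 ± 0.420 FPKM. Elovl6, which lengthens palmitoyl-CoA to stearoyl-CoA, stood on the other side, at 27.0 ± 4.01 FPKM in WT and 32.4 ± 2.77 in AdIl17rc KO. Its log2 difference was 0.26 as deposited and 0.59 after scaling (limma adjusted p = 0.300 and 0.233), and its groups overlapped as deposited and did not after scaling.

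The electron chain that serves the desaturases had smaller differences than the family itself. The family was chosen by its difference, so nothing is read from this contrast. Of 5 tested genes, 2 were lower and 0 higher at an unadjusted p under 0.05 as deposited (Cyb5r1 and Cyb5r3), and 0 lower and 1 higher after scaling (Cyb5r4, named after its values were seen). Among all tested genes the shares were 24.8% lower and 1.01% higher as deposited, and 8.61% and 9.05% after scaling. Cyb5, the file's symbol for cytochrome b5 of the endoplasmic reticulum, was at 199 ± 36.5 FPKM in WT and 165 ± 17.2 in AdIl17rc KO (SD, n = 3), a log2 difference of -0.26 as deposited that turned to 0.076 after scaling. Cyb5r3, cytochrome b5 reductase, was at 22.1 ± 4.88 and 14.7 ± 2.75 FPKM, with a log2 difference of -0.57 as deposited and -0.24 after scaling. Cyb5r1, a related reductase, had log2 differences of -0.65 and -0.34, and Cyb5b, the mitochondrial cytochrome b5, of -0.26 and 0.070. Among 4 tested desaturases of other families, 1, Fads3, was lower at an unadjusted p under 0.05 as deposited and 0 after scaling. Fads3 was at 11.3 ± 4.34 and 6.12 ± 1.38 FPKM (log2 difference -0.78, limma adjusted p = 0.165). Fads2, which desaturates polyunsaturated chains, had a log2 difference of -0.54 as deposited and -0.29 after scaling, Fads1, which acts after it, of -0.41 and -0.14, and Degs1, which makes ceramide, of -0.31 as deposited and 0.012 after scaling.

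Among 30 regulators known to act on desaturase genes, 14 were lower and 0 higher at an unadjusted p under 0.05 as deposited. After scaling, 9 were lower and 1 higher, the latter being Nfyc, named after its values were seen. Of all tested genes, 24.8% were lower and 1.01% higher as deposited, and 8.61% and 9.05% after scaling. Srebf1, which encodes SREBP1, was at 8.29, 8.35 and 6.42 FPKM in WT and 5.68, 3.22 and 3.32 FPKM in AdIl17rc KO. Mlxipl, which encodes ChREBP, was at 18.3, 15.8 and 16.3 FPKM in WT and 12.1, 8.25 and 7.95 FPKM in AdIl17rc KO. In both genes AdIl17rc KO library 1 was the highest of its group, and the groups did not overlap. Of all tested genes, 31.7% were lower without overlap as deposited and 12.5% after scaling. The log2 differences were -0.87 as deposited and -0.57 after scaling for Srebf1 and -0.82 and -0.50 for Mlxipl (limma adjusted p = 0.151 for both as deposited). With GC and length correction added to the scaling they were smaller, at -0.35 for Srebf1 and -0.33 for Mlxipl. Pparg, the master regulator of fat cells, was at 103 ± 16.8 and 64.9 ± 4.37 FPKM (SD, n = 3), and Ppara at 22.9 ± 5.20 and 12.4 ± 4.78 FPKM. Thrb, a thyroid hormone receptor, had a log2 difference of -0.58 as deposited and -0.30 after scaling. Nr1h3, which encodes LXR alpha, was at 14.8 ± 1.14 and 12.3 ± 2.98 FPKM, with a log2 difference of -0.27 as deposited and 0.047 after scaling. None of these regulators passed the adjusted threshold.

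Genes that use the monounsaturated products had smaller differences than the desaturases, which were chosen by theirs. Of 16 tested acyltransferases and esterifying enzymes, 1, Lpin3, was lower and 0 higher at an unadjusted p under 0.05 as deposited. After scaling, 0 were lower and 1 higher, Dgat1, named after its values were seen. Among all tested genes, 24.8% were lower and 1.01% higher as deposited, and 8.61% and 9.05% after scaling. Dgat2, which makes triglyceride and works beside the desaturases, was at 291, 340 and 272 FPKM in WT and 317, 186 and 117 FPKM in AdIl17rc KO. Its groups overlapped, because AdIl17rc KO library 1 was as high as WT (log2 difference -0.65, limma adjusted p = 0.217). Lpin3 and Lpin1, phosphatidate phosphatases, had log2 differences of -0.66 and -0.68 as deposited and of -0.39 and -0.36 after scaling. The phospholipid acyltransferases Lpcat4 and Mboat7 had -0.40 and -0.41 as deposited and -0.22 and -0.094 after scaling. Of 18 tested sterol synthesis genes and LXR targets, 7 were lower and 0 higher at an unadjusted p under 0.05 as deposited, and 1, Srebf1, lower after scaling. Abcg1, a cholesterol exporter under LXR, had a log2 difference of -0.51 as deposited and -0.22 after scaling.

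**Figure D5:**
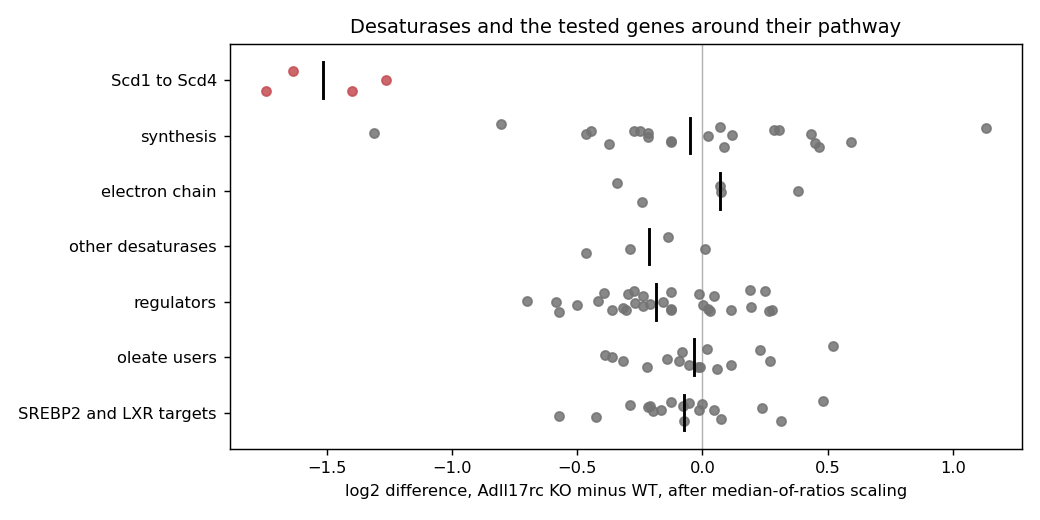
Scaled log2 differences, AdIl17rc KO minus WT, of the desaturases and of each tested gene in the 6 lists, 1 point per gene, with a bar at the median of each list. The desaturases, chosen by their difference between these groups, lie between -1.74 and -1.26, and the list medians lie between -0.21 and 0.07.

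The libraries carried the markers of brown fat, which were not lower in AdIl17rc KO as a sum. Ucp1, the heat-producing uncoupling protein, was at 2256 ± 303 FPKM in WT and 2723 ± 230 in AdIl17rc KO (SD, n = 3; limma adjusted p = 0.250). Its groups overlapped as deposited and did not after scaling, and the log2 difference was 0.28 and 0.61 (limma adjusted p = 0.177 after scaling). The 10 fat-cell markers summed to 12016 to 15019 FPKM in WT and 12551 to 14370 in AdIl17rc KO, and the 10 brown fat markers to 6295 to 6982 and 6702 to 7998 FPKM. On scaled values the brown fat sums were 5155 to 6843 in WT and 7971 to 8114 in AdIl17rc KO, without overlap. Of the 10 brown fat markers, 7 had positive and 3 negative log2 differences after scaling. After scaling, the sums of the fat-cell markers were 11297 to 12337 in WT and 14321 to 16639 in AdIl17rc KO, so that AdIl17rc KO was higher without overlap. The sum is largely Fabp4, which supplied 9653 of 12957 FPKM in WT library 3. Of the 10 fat-cell markers, 7 had negative log2 differences as deposited (median -0.27) and 4 after scaling (median 0.062). None passed the limma test. At an unadjusted p under 0.05 there were 3 lower and 1 higher as deposited, against 24.8% and 1.01% of all tested genes. After scaling there were 2 lower and 3 higher, against 8.61% and 9.05%. The desaturase sum was also set against single fat-cell genes. Its difference between the groups chose the family, so lower ratios are a description and add no support. The summed desaturases were 7.16, 3.25 and 4.93 times the level of Adipoq, which encodes adiponectin, in WT libraries 1, 2 and 3 and 1.36, 1.95 and 1.56 times in AdIl17rc KO. The groups did not overlap in this ratio, nor in those to Fabp4, Plin1, Lpl and Cidec, and the log2 differences of the 5 ratios ran from -1.98 to -1.32.

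Markers of other cell types were summed in the same way. The 10 markers of sebaceous gland and skin summed to 1.48 to 2.26 FPKM in WT and 1.08 to 1.25 in AdIl17rc KO, with Krt5, Krt14 and Awat1 listed at 0 in all libraries. The 8 heart muscle markers summed to at most 1.99 FPKM in any library, with Myl7 and Nppa listed at 0. The 10 markers of nervous tissue summed to 22.9 to 25.0 FPKM in WT and 21.1 to 27.3 in AdIl17rc KO. The 9 measured white fat markers summed to 52.9 to 107 FPKM in WT and 54.6 to 79.9 in AdIl17rc KO, with Hoxc9, Hoxc10 and Tcf21 listed at 0. The 8 macrophage markers summed to 45.7 to 112 and 58.9 to 79.2 FPKM. The 8 endothelial markers summed to 170 to 302 FPKM in WT and 111 to 174 in AdIl17rc KO, and after scaling to 167 to 227 and 133 to 174, with overlap on both scales. All 8 had negative log2 differences on both scales, beside 9516 of 10864 tested genes as deposited and 5471 after scaling. At an unadjusted limma p under 0.05, 4 were lower on each scale, against 24.8% and 8.61% of all tested genes. Their part in the desaturase difference was not tested. Skeletal muscle markers moved with single libraries. The 10 of them summed to 2.37 to 35.9 FPKM in WT, to 270 and 480 FPKM in AdIl17rc KO libraries 1 and 2, and to 1.69 FPKM in AdIl17rc KO library 3. In that last library the summed desaturases were at 887 FPKM as deposited, the lowest of its group, and at 1060 after scaling, between libraries 1 (900) and 2 (1275). With it alone against WT the log2 differences as deposited were -1.70 for Scd1, -2.13 for Scd2, -2.15 for Scd3 and -2.37 for Scd4. These values rest on 1 library of AdIl17rc KO and on the contrast that chose the genes. The part of skeletal muscle in the desaturase difference was not tested.

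For the table as a whole, the approximate depth was 31.1 to 38.5 megafragments per library. The 10 highest features made up 12.3% to 15.7% of all FPKM in 5 libraries and 44.4% in AdIl17rc KO library 2, where Mir6236 alone was at 146487 FPKM. The targeted gene, Il17rc, was at 3.21, 2.28 and 2.02 FPKM in WT and 1.32, 0.619 and 0.530 FPKM in AdIl17rc KO. Il17rc was thus lower in every library labelled AdIl17rc KO than in any WT library, with a log2 difference of -1.21 (limma adjusted p = 0.151). The difference was -0.98 after scaling (limma adjusted p = 0.226) and -0.84 with GC and length correction as well. Of all tested genes, 31.7% were lower without overlap as deposited and 12.5% after scaling.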

How the data were processed

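The authors deposited 1 table of FPKM values with 24043 lines and 6 library columns. The submitters' processing notes name STAR 2.5.1b, Cufflinks 2.2.1, DESeq2 1.10.1 and the mouse build mm9. Their annotation, strand setting, read length and handling of reads with several matches were not given in the sources used here. FPKM values are not counts, and count models were not applied. Symbols on 27 lines had become dates, and those lines were left out. A gene at exactly 0 may be a failed estimate, and is said to be listed at 0. Approximate depth came from the step that 1 read makes in the FPKM of low genes.

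Genes with a mean of at least 0.5 FPKM were tested as log2(FPKM + 0.5) with limma 3.58.1 in R 4.3.3 (genotype as the only term, two-sided, with trended empirical Bayes). P-values were adjusted by Benjamini-Hochberg over all 10864 genes, at a threshold of 0.05. The pseudocount understates the differences of low genes. Scaled values were divided by median-of-ratios factors of 1.33, 1.02 and 1.05 for WT and 1.00, 0.849 and 0.836 for AdIl17rc KO libraries 1, 2 and 3. Log2 differences are differences of group means. For the desaturases the SE is that of the 2 groups' own spread.

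Lengths, neighbours and coding sequences came from a GENCODE annotation of GRCm38 and promoters from RefSeq, used for sequence and position only, since the FPKM were made on another build. Coding sequences were aligned with mafft 7.526. Of 24016 entries, 22633 matched the annotation directly and 919 by an older name.

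The desaturases and all lists were chosen with earlier results of these data known. Named were Il17rc, Ucp1, the 4 genes of each list with the smallest p, a few pathway genes whatever their p (Srebf1, Mlxipl, Nr1h3, Ppara, Fasn, Elovl6, Cyb5 and Dgat2), and the 6 genes with the profile most like the summed desaturases at a mean of at least 1 FPKM, with predicted genes, small RNAs and pseudogenes left out. Some genes that this rule names are not reported here. Alternatives were other scalings, pseudocounts, filters and variance models, GC and length correction, a replicate block, and each library left out. Comparing AdIl17rc KO library 3 alone with WT was added after seeing the data.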

Additional observations from a re-analysis of the deposited data

How the results depend on the processing

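The differences of Scd1, Scd2, Scd3, Scd4 and their sum stayed negative under every scaling, pseudocount, correction and left-out library tried. Since the groups did not overlap as deposited, leaving out a library could not have turned the sign, so only the sizes are informative there. With each library left out in turn, the log2 difference ran from -1.88 to -1.36 for Scd1, from -1.94 to -1.51 for Scd2, from -2.23 to -1.71 for Scd3 and from -2.37 to -1.75 for Scd4. That of Scd2 moved beyond the spread of the libraries to -1.30 after scaling with GC and length correction, with or without a replicate block, and to -2.13 with AdIl17rc KO library 3 alone against WT. By estimated fragments in place of FPKM, the difference in share was -0.259 percentage points for Scd3 and -0.112 for Scd4.

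The limma test across all genes made 2 calls. The count was 1 without the filter, 14 with robust empirical Bayes, 263 with a common FPKM sum, and 13 with AdIl17rc KO library 3 alone against WT, where that library is assumed to vary like the others. Leaving out each library in turn gave 3 to 77 calls, with 77 without AdIl17rc KO library 3, 3 without library 1 and 4 without library 2 of that group, and 4, 8 and 7 without WT libraries 1, 2 and 3. Among the 92 pathway genes the count was 0 except for 4 with a common FPKM sum, a scale that the Mir6236 value of AdIl17rc KO library 2 sets in part. The causes were not tested.

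With a replicate block the test made 1 call, also with scaling and with GC and length correction. The labels name no pairs. After taking out group means, the correlations between WT and AdIl17rc KO libraries of like number were 0.11, -0.13 and -0.072. Those of unlike number ran from -0.078 to 0.18, so the values do not decide whether libraries were paired.

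Some small negative differences turned positive once libraries were scaled, though not under every scaling. With median-of-ratios scaling, with or without a replicate block, they were 0.070 for Cyb5b, 0.076 for Cyb5, 0.012 for Degs1 and 0.047 for Nr1h3. With upper-quartile scaling they were 0.047 for Cyb5b, 0.052 for Cyb5 and 0.024 for Nr1h3. With GC and length correction, with or without the block, they were 0.058 for Cyb5b, 0.037 for Mboat7 and 0.11 for Nr1h3. Cyb5 and Degs1 were negative under that correction, at -0.090 and -0.14. How reads that match several members were divided, which FPKM does not show, limits the values of Scd2, Scd3 and Scd4.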
